A study of Caenorhabditis elegans with 6 samples.

Results

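Histone acetylation was examined at the long noncoding RNA genes and antisense RNA genes of Caenorhabditis elegans, taken as every nuclear ChIP-seq peak whose assigned gene has a symbol that begins with linc- or anr-. They held 118 of 17207 peaks for acetylated lysine 18 of histone H3 (H3K18ac) and 108 of 17763 peaks for acetylated lysine 27 (H3K27ac). The H3K18ac peaks belonged to 59 linc and 23 anr genes out of 11891 assigned genes, and the H3K27ac peaks to 56 linc and 22 anr genes out of 12551. Over both marks 97 genes had a peak (72 linc, 25 anr), and 130 of the 227 linc and anr genes in RefSeq had none in the tables used here. ChIP-seq counts DNA fragments bound to acetylated histones, so nothing here measures the RNA of these genes.

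The worms were strain N2, wild type per the sample labels, while the series design adds a green fluorescent hsp-6 reporter to all of them. Worms fed bacteria of which 50% carried RNAi against cco-1, a subunit of cytochrome c oxidase, and the rest the empty vector were compared with worms fed the empty vector alone, both in E. coli HT115. Feeding began at the egg and ended at the L4 or young adult stage, at 20 °C. Whole worms were fixed and each mark was precipitated in each condition, with 1 library per group, and the 2 input libraries were not analysed here. In whole worms, fewer cells of a type and less acetylation per cell cannot be told apart.

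Long intergenic noncoding RNAs (linc genes) are transcribed from their own loci between coding genes, whereas antisense RNAs (anr genes) run opposite to a gene that they overlap. Acetylation of H3 at lysines 18 and 27 is laid down by enzymes of the CBP/p300 family, cbp-1 in worms, and marks active promoters and enhancers. Fragments carry no strand in ChIP-seq, so acetylation at an antisense gene and at its overlapping partner cannot be told apart.

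The counts in peaks summed to 8948860 in cco-1 RNAi and 8293828 in empty vector for H3K18ac, and to 11593321 in cco-1 RNAi and 11556404 in empty vector for H3K27ac. Values are given as counts per 1000000 counts in peaks (CPM), and a fold is cco-1 RNAi over empty vector. The 95% intervals are exact (Clopper-Pearson) and cover counting error only, since reads without molecular identifiers are not independent molecules. With 1 library per group no difference could be set against the spread between replicates, and p-values are not given. A peak is said to have risen or fallen when it was at least 1.5-fold higher or lower. The peak over cco-1 itself was 8.32-fold higher for H3K18ac (8.01 to 8.63) and 3.15-fold higher for H3K27ac (3.08 to 3.22). These are DNA counts at the RNAi target and do not check the knockdown. Chromosome X was covered to 7.89 Mb for H3K18ac and to 12.9 Mb for H3K27ac, and the remainder of X is not analysed here.

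For H3K18ac, 13 of the 118 peaks of these genes rose in cco-1 RNAi and 19 fell, while 86 stayed within 1.5-fold. That is 11.02% higher and 16.1% lower, against 9.16% higher and 13.2% lower among all peaks of the mark. The median log2 ratio was -0.01 at the linc and anr peaks and -0.03 over all peaks. Among linc peaks, 8 of 84 rose and 16 fell. Among anr peaks, 5 of 34 rose and 3 fell. Both classes had a median of -0.01.

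For H3K27ac, 13 of the 108 peaks rose and 22 fell, which is 12.0% higher and 20.4% lower, against 8.73% higher and 23.1% lower among all peaks. The median log2 ratio was -0.07 at the linc and anr peaks and -0.19 over all peaks. Of the 79 linc peaks 10 rose and 18 fell, and their median was -0.12. Of the 29 anr peaks 3 rose and 4 fell, and theirs was 0.07. The scale chosen moves this balance: setting the median of all H3K27ac peaks to 0, a shift of 0.19 on the log2 scale, gave 20 higher and 17 lower with a member median of 0.12. TMM scaling gave 19 higher and 17 lower, and subtracting the median of peaks of like strength gave 13 and 17. For H3K18ac the split was 20 higher and 14 lower without any scaling.

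**Figure D1:**
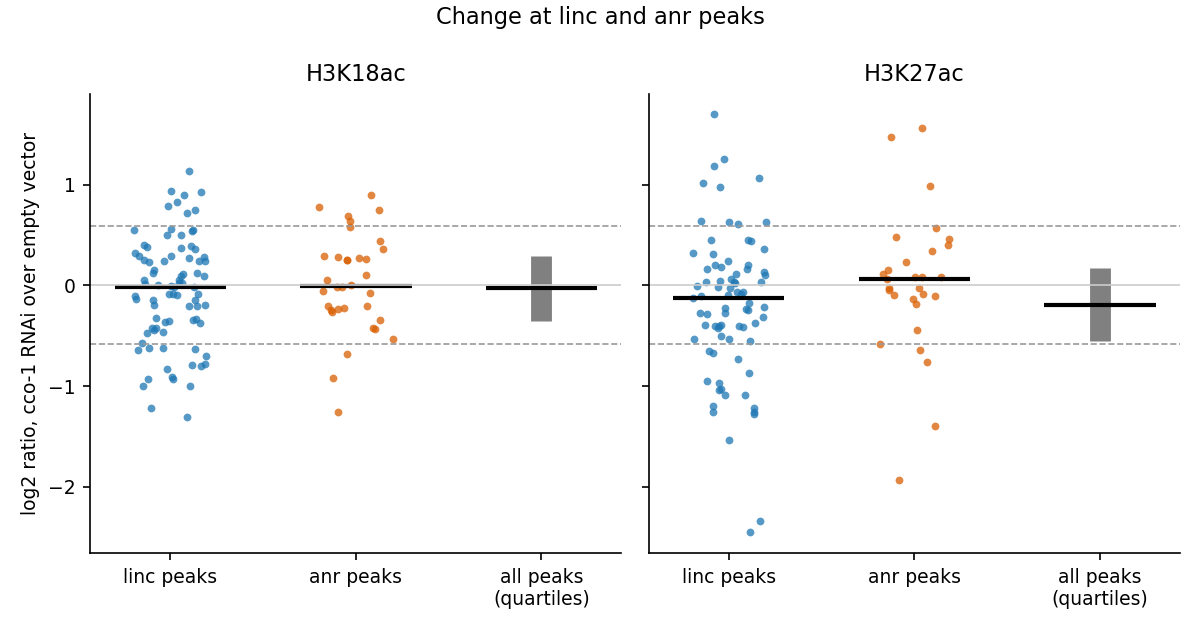
Change in log2 (cco-1 RNAi relative to empty vector) for each linc peak (blue) and anr peak (orange), with H3K18ac on the left and H3K27ac on the right. Black bars are medians, the grey bar spans the quartiles of all peaks and dashed lines mark 1.5-fold; the points lie on both sides of 0 in both marks.

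Taking each gene by its strongest peak, H3K18ac rose at 5 of 82 genes and fell at 14, against 8.04% higher and 13.1% lower among all genes. H3K27ac rose at 6 of 78 genes and fell at 16, against 8.72% higher and 21.9% lower among all genes. All 32 H3K18ac peaks and all 35 H3K27ac peaks called by the 1.5-fold rule had a counting interval of the fold that left out 1. This does not check the calls, because many linc and anr peaks within 1.5-fold had such an interval too. Called or not, the interval lay above 1 at 34 H3K18ac peaks and below 1 at 38. For H3K27ac it lay above 1 at 31 peaks and below 1 at 44.

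In H3K27ac the ratio went with peak strength. For H3K27ac, the 45 linc and anr peaks below the median strength of all peaks (29.5 CPM, mean of both conditions) had a median log2 ratio of -0.38, and the 63 at or above it had -0.03. All H3K27ac peaks showed the same split, -0.39 below the median strength and -0.03 at or above it. For H3K18ac the medians were -0.02 for the 57 weaker member peaks and -0.00 for the 61 stronger ones.

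**Figure D2:**
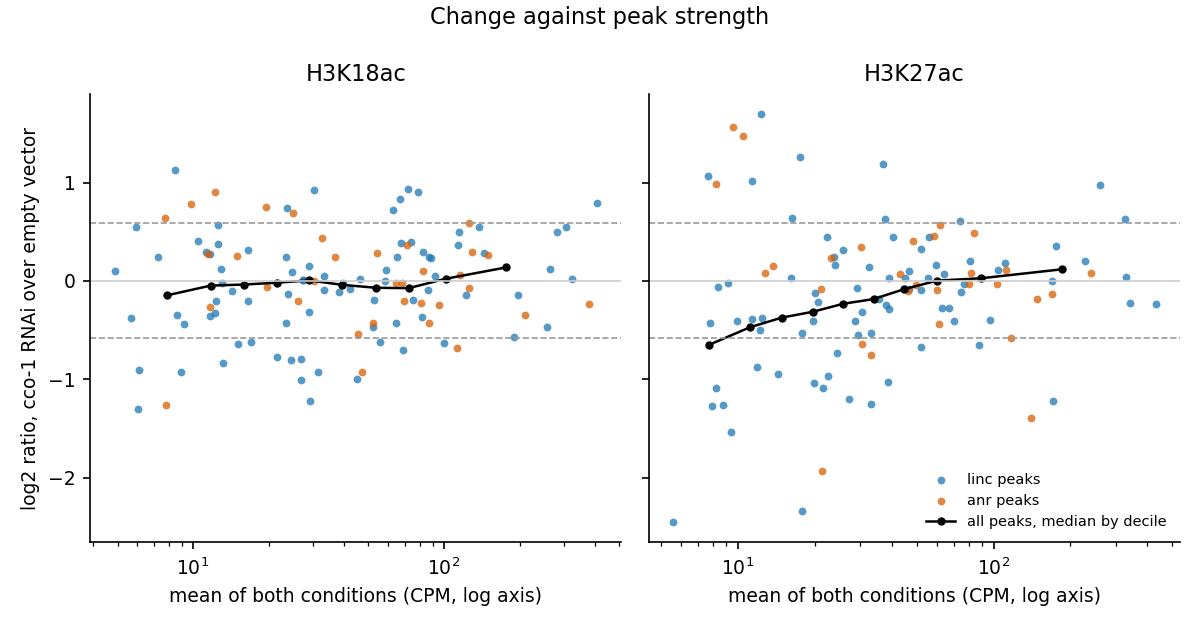
Change in log2 (cco-1 RNAi relative to empty vector) against mean CPM (log axis) for linc peaks (blue) and anr peaks (orange); the black line is the median of all peaks in each decile of strength. In H3K27ac the line runs from -0.65 in the weakest decile to 0.12 in the strongest, and dashed lines mark 1.5-fold.

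The linc or anr peak with the most H3K18ac counts in cco-1 RNAi, 4624, lay beside linc-128 (chromosome V). This upstream peak (1149053 to 1150217, build ce11, 689 bp before the gene start) had 517 CPM in cco-1 RNAi and 298 CPM in empty vector. That is 1.73-fold higher (1.65 to 1.82). The matching H3K27ac peak (1149120 to 1150145) had 347 CPM in cco-1 RNAi and 177 CPM in empty vector, 1.96-fold higher (1.86 to 2.07). Both marks rose upstream, whereas the peak over the start of linc-128 stayed near its level, at 1.09-fold for H3K18ac (1.03 to 1.16) and 1.03-fold for H3K27ac (0.984 to 1.08). No coding gene of RefSeq lies under any of these 4 peaks.

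At linc-105 (chromosome III) the peak over the gene start rose in both marks; this gene was chosen after its values were seen. H3K18ac there (10716807 to 10718792) had 94.5 CPM in cco-1 RNAi and 49.3 CPM in empty vector, 1.92-fold higher (1.702 to 2.16). H3K27ac (10717842 to 10718756) had 51.5 CPM in cco-1 RNAi and 22.7 CPM in empty vector, 2.27-fold higher (1.96 to 2.64). The next peak, over the end of the gene, changed less, by 1.22-fold for H3K18ac and 1.13-fold for H3K27ac. The rise lay upstream of the start at linc-128 and over the start at linc-105.

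A single peak covers the start of linc-129 and also sca-1, which encodes the calcium pump of the endoplasmic reticulum (chromosome III, 10816263 to 10817444 for H3K18ac). It had 363 CPM in cco-1 RNAi and 248 CPM in empty vector for H3K18ac, 1.46-fold higher (1.38 to 1.55) and just short of the threshold. For H3K27ac it had 398 CPM in cco-1 RNAi and 257 CPM in empty vector, 1.55-fold higher (1.48 to 1.62). The count cannot be divided between linc-129 and sca-1.

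Other H3K18ac rises lay away from coding genes. The peak inside linc-152 (chromosome II) had 85.5 CPM in cco-1 RNAi and 48.1 CPM in empty vector, 1.78-fold higher (1.57 to 2.01). Downstream of linc-137 (chromosome V) the values were 78.0 CPM in cco-1 RNAi and 47.4 CPM in empty vector, 1.65-fold higher (1.45 to 1.87). H3K27ac at the overlapping peaks of these genes stayed within 1.5-fold, with log2 ratios of 0.45 at linc-152 and 0.32 at linc-137. At linc-159 (chromosome IV) the rise passed the threshold at different peaks: H3K18ac rose 1.90-fold at the peak 97 bp inside the gene (1.58 to 2.29) and H3K27ac rose 1.52-fold at the upstream peak (1.38 to 1.68).

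A peak assigned to linc-108 and downstream of it (chromosome V, 15562359 to 15563473) rose 1.87-fold for H3K18ac (1.67 to 2.09). It had 103 CPM in cco-1 RNAi and 55.0 CPM in empty vector. The overlapping H3K27ac peak had a log2 ratio of 0.03, so the marks parted there. The strongest H3K18ac peak of linc-108 (15565984 to 15568352) also covers the start of acs-2, which encodes an acyl-CoA synthetase of fatty acid oxidation. This peak had 164 CPM in cco-1 RNAi and 112 CPM in empty vector, a log2 ratio of 0.54, under the threshold. The H3K27ac peak at the start of acs-2 was 1.38-fold higher (1.18 to 1.62), also under the threshold.

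The largest H3K27ac rise of any linc or anr peak, also chosen after its values were seen, was a weak peak over the start of linc-151 (chromosome IV, 11808624 to 11809252). It had 18.8 CPM in cco-1 RNAi and 5.80 CPM in empty vector, 3.24-fold higher (2.46 to 4.33). The stronger peak of linc-151, downstream of the gene and 1020 bp from its start, rose 1.54-fold (1.35 to 1.77). A wide H3K18ac peak (11808694 to 11810606) that covers the start was 1.19-fold higher (1.05 to 1.34).

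The 2 deepest falls in H3K27ac were weak peaks over gene starts. At linc-68 (chromosome II, 3597268 to 3597596) the start peak had 1.73 CPM in cco-1 RNAi and 9.43 CPM in empty vector, a fold of 0.183 (0.108 to 0.296). At linc-47 (chromosome II) it had 5.87 CPM in cco-1 RNAi and 29.7 CPM in empty vector, a fold of 0.198 (0.150 to 0.257). Falls past 2-fold also came at linc-57 (0.345), linc-6 (0.414), linc-14 (0.472) and linc-17 (0.486). linc-17 lies beside linc-68 on chromosome II. linc-47, linc-57, linc-6, linc-14 and linc-17 were named after their values were seen.

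Stronger peaks fell too. At linc-87 (chromosome III, 12149801 to 12151225) H3K27ac over the gene start had 103 CPM in cco-1 RNAi and 239 CPM in empty vector, a fold of 0.430 (0.402 to 0.461). H3K18ac there had 153 CPM in cco-1 RNAi and 228 CPM in empty vector, a fold of 0.673 (0.627 to 0.722), just short of the threshold. The peak over anr-25 (chromosome I, 9374274 to 9375643), which lies within ppfr-1, encoding a regulatory subunit of protein phosphatase 4, had 77.2 CPM in cco-1 RNAi and 202 CPM in empty vector. Its H3K27ac fold was 0.381 (0.353 to 0.412). The H3K27ac peak at the start of ppfr-1 had a fold of 1.07 (0.986 to 1.17), so the H3K27ac fall lay at the internal peak and not at the start of the host gene. The H3K18ac peak that overlaps the internal peak, assigned to mir-2, stayed within 1.5-fold, with a log2 ratio of -0.14.

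**Figure D3:**
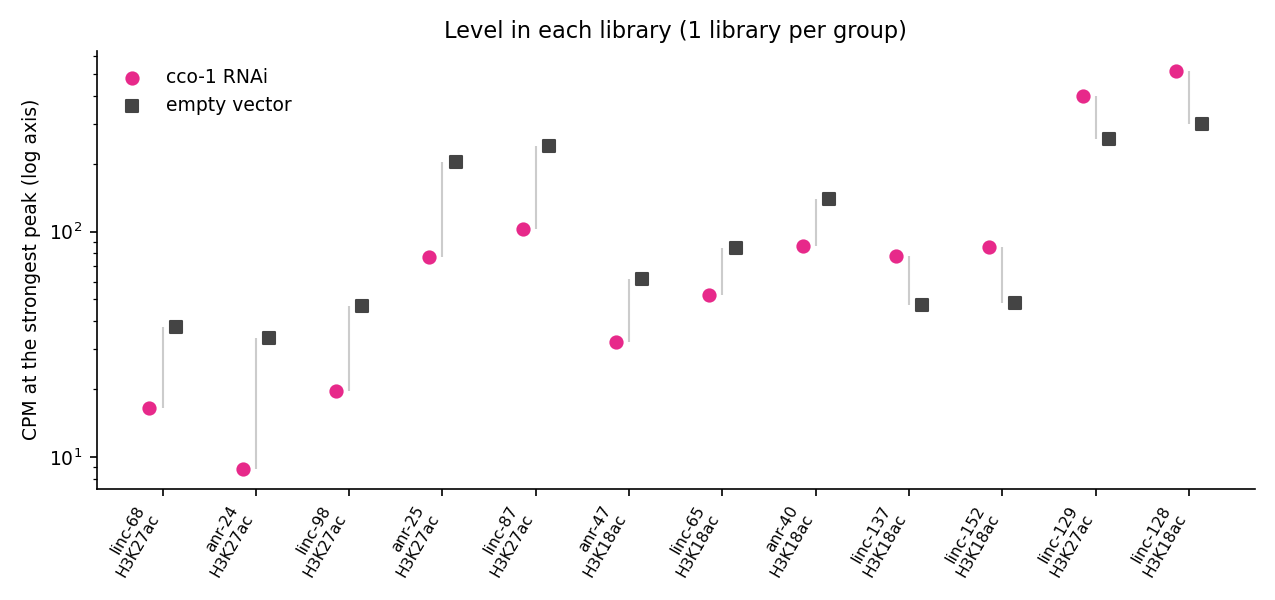
CPM (log axis) at the strongest peak of 12 gene and mark pairs in cco-1 RNAi (pink circles) and empty vector (dark squares), 1 library each. The falls include anr-25 for H3K27ac at 77.2 CPM in cco-1 RNAi and 202 CPM in empty vector, and the rises include linc-128 for H3K18ac at 517 CPM in cco-1 RNAi and 298 CPM in empty vector.

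Of the 97 genes, 63 had a peak in both marks. By their strongest peaks, 0 of these rose in both marks and 5 fell in both, against 2.84% higher in both and 6.39% lower in both among 10058 genes. With the median of all peaks set to 0 in each mark, 2 rose in both (anr-32 and linc-152) and 4 fell in both, anr-47 dropping out, against 4.66% higher and 4.13% lower in both among all such genes. With a pseudocount of 5 CPM 3 fell in both, linc-98 and linc-168 dropping out, against 3.73% of all such genes. The sign of the change was the same in both marks at 46 of the 63 (73.0%), against 70.6% of all such genes. Across the 63 genes Pearson's r between the marks was 0.70 and Spearman's rho 0.67. Over all genes they were 0.59 and 0.58. These are descriptions across genes, which come from the same 4 libraries and are not independent replicates. Of the 63 genes, 0 moved past 1.5-fold in opposite directions, which was also rare among all such genes (11 of 10058).

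The genes that fell in both marks were anr-24, anr-47, linc-68, linc-98 and linc-168. At anr-24 (chromosome X) H3K18ac had 4.58 CPM in cco-1 RNAi and 10.97 CPM in empty vector, a fold of 0.418 (0.282 to 0.610). H3K27ac at anr-24 had 8.88 CPM in cco-1 RNAi and 33.8 CPM in empty vector, a fold of 0.263 (0.209 to 0.327). At anr-47 (chromosome IV) the folds were 0.528 for H3K18ac (0.455 to 0.611) and 0.591 for H3K27ac (0.509 to 0.686). This peak lies over the coding gene Y67D8B.5. A separate peak, of the coding gene Y67D8B.3, also fell in both marks, to folds of 0.648 for H3K18ac and 0.654 for H3K27ac. Y67D8B.3 overlaps anr-47 on the same strand. At linc-98 (chromosome V), whose peak also lies over C31G12.4, the folds were 0.642 for H3K18ac and 0.419 for H3K27ac. The peak of linc-168 lies downstream of it in egas-1 (chromosome V) and had folds of 0.650 for H3K18ac and 0.510 for H3K27ac. The strongest peak of linc-68 lies downstream of it, over the coding gene Y49F6A.11, and had folds of 0.526 for H3K18ac and 0.435 for H3K27ac.

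Strongest peaks can differ between marks, as they do at linc-128. Matching by overlap instead paired 90 of the 118 H3K18ac peaks (76.3%, against 84.8% of all H3K18ac peaks) with an H3K27ac peak. Of these pairs 3 rose in both marks (3.33%), at anr-19, linc-105 and linc-128, against 2.91% of the 14594 such pairs over all peaks. In 5 pairs both marks fell (5.56%), against 6.13% over all peaks, and these belonged to the 5 genes above. The sign was the same in 65 of the 90 (72.2%), against 69.9% of all pairs. These shares lie near those of all peaks. anr-19, which lies in trpp-10, was also named after its values were seen: its pair, upstream of the gene, had folds of 1.71 for H3K18ac (1.24 to 2.39) and 2.95 for H3K27ac (2.17 to 4.08).

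**Figure D4:**
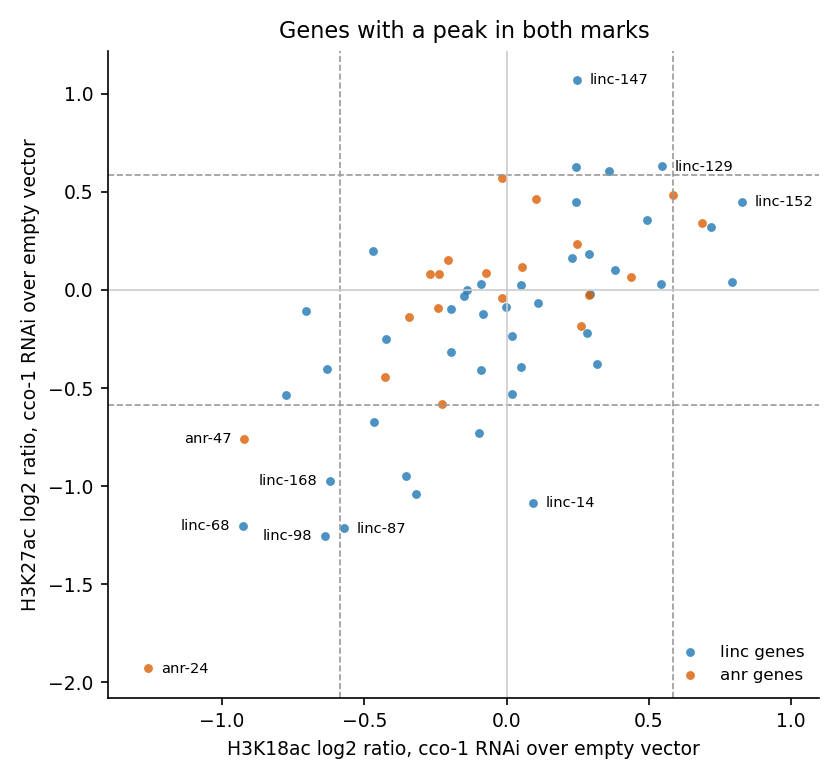
H3K27ac log2 ratio against H3K18ac log2 ratio, each as cco-1 RNAi over empty vector, at the strongest peak of each of the 63 genes with a peak in both marks (linc blue, anr orange). Dashed lines mark 1.5-fold; at the scaling used the corner for a rise in both is empty and the corner for a fall in both holds 5 genes. With the median of all peaks set to 0, anr-32 and linc-152 pass into the first and anr-47 leaves the second.

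At several genes the marks parted. At linc-14 (chromosome V, start peak) H3K18ac had a fold of 1.07 (0.878 to 1.30), and H3K27ac one of 0.472 (0.388 to 0.571). At linc-91 (chromosome I) both H3K18ac peaks had log2 ratios above 0 (0.40 over the start and 0.05 further in). All 3 H3K27ac peaks of linc-91 were below 0, at -0.39, -1.03 and -0.65, and the last pair passed the threshold. The peak assigned to linc-114 lies downstream of it in ama-1, which encodes the large subunit of RNA polymerase II (chromosome IV), and had folds of 0.723 for H3K18ac and 1.15 for H3K27ac. Neither of these passed the threshold.

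Of the 97 genes, 19 had only H3K18ac peaks (19.6%, against 12.7% of all genes with a peak) and 15 only H3K27ac peaks (15.5%, against 17.3%). Among those with only H3K27ac peaks, 4 (linc-22, linc-33, linc-88, linc-142) lie on X beyond the end of the H3K18ac table. A further 7 had an H3K18ac peak at the same place that the authors assigned to another gene. Of the 19 with only H3K18ac peaks, 6 likewise overlapped an H3K27ac peak assigned elsewhere. Genes with only H3K18ac peaks were weakly marked, with median levels at the strongest peak of 12.96 CPM in cco-1 RNAi and 13.3 CPM in empty vector.

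Several genes held more than 1 peak: 29 for H3K18ac and 26 for H3K27ac. Within a gene the peaks differed by at least 1.5-fold in their ratios at 7 genes for H3K18ac (24.1%, against 28.8% of all genes with several peaks) and 11 for H3K27ac (42.3%, against 42.5%). In 0 of these genes did peaks of 1 mark pass 1.5-fold in opposite directions, against 0.829% of all genes with several peaks for H3K18ac and 2.23% for H3K27ac. At linc-42 (chromosome III) all 4 H3K18ac peaks were below 0, with folds of 0.745, 0.563, 0.500 and 0.651 in genomic order; 3 of these lie over R10F2.6 and passed the threshold. None of the 3 H3K27ac peaks of linc-42 did, with folds of 0.883, 0.683 and 0.842. A nearby H3K27ac peak assigned to R10F2.6 itself did pass it, with a fold of 0.556 (0.492 to 0.629). An H3K18ac peak assigned to R10F2.6, at another place, did not, with a fold of 0.674. The largest H3K18ac rise of any linc or anr peak was a weak one downstream of linc-107 (chromosome II), with 11.6 CPM in cco-1 RNAi and 5.31 CPM in empty vector, 2.19-fold higher (1.53 to 3.19). The strongest peak of linc-107, over its end, had a fold of 0.986 (0.753 to 1.29). At linc-142 (chromosome X, within scd-1) all 3 H3K27ac peaks stayed within 1.5-fold, with log2 ratios of 0.25, 0.14 and 0.31 in genomic order. linc-143 lies within the RefSeq span of daf-2, the insulin receptor gene (chromosome III). The H3K18ac peak furthest downstream of linc-143 (3033653 to 3034287) rose 1.68-fold (1.37 to 2.07), while H3K27ac rose at the neighbouring peak (3034618 to 3035372) by 2.39-fold (1.92 to 2.98). The strongest H3K18ac peak assigned to daf-2 itself rose 1.59-fold (1.48 to 1.71). The H3K27ac peak there was 1.15-fold higher (1.06 to 1.24), within the threshold. As positioned in the deposited data, daf-2 reaches only to 3028800, short of these linc-143 peaks.

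**Figure D5:**
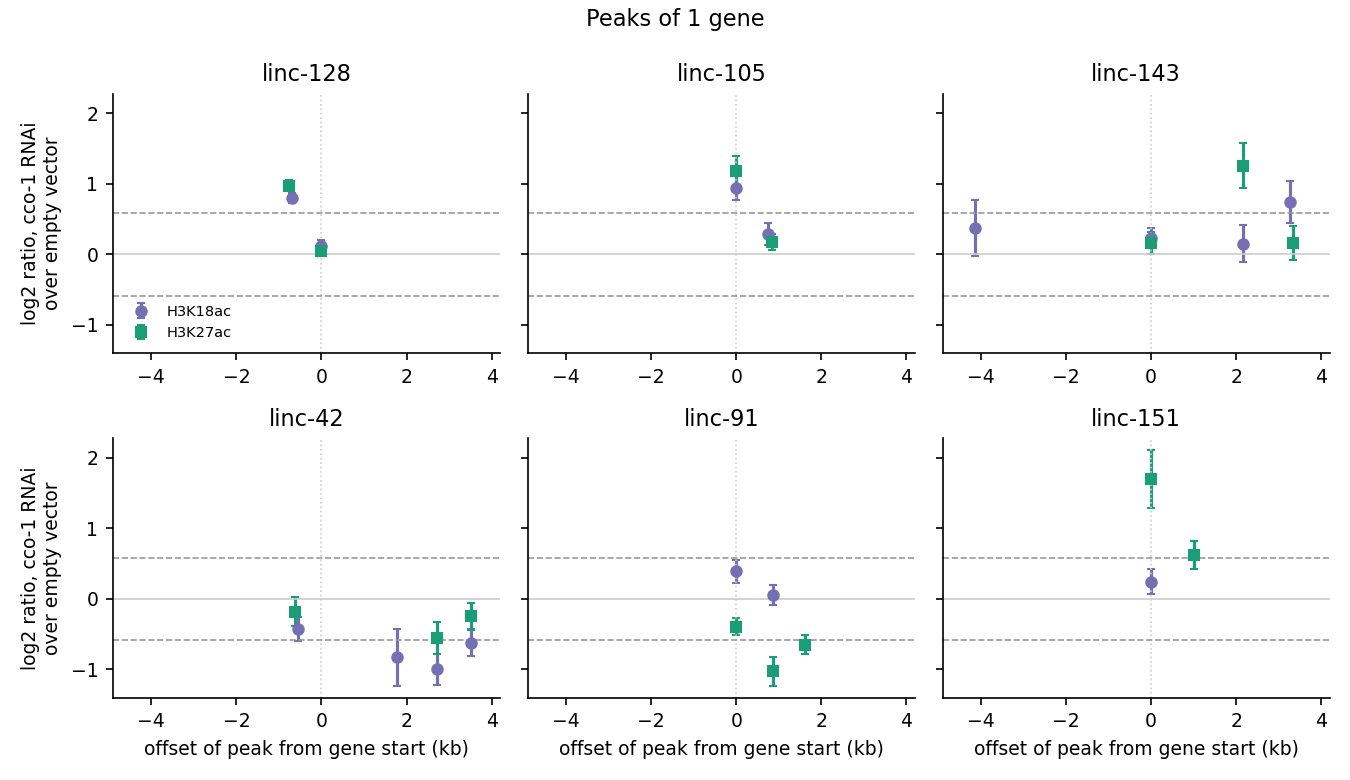
Change in log2 (cco-1 RNAi relative to empty vector) for each peak of 6 genes, by its offset from the gene start in kb (0 where a peak covers the start), for H3K18ac (purple circles) and H3K27ac (green squares). Error bars are 95% counting intervals; linc-128 is higher upstream and near 0 at its start.

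The share of peaks over a gene start was near that of all peaks. For H3K18ac 34 of the 118 covered the start of the assigned gene (28.8%, against 29.9% of all peaks), and for H3K27ac 30 of the 108 did (27.8%, against 31.3%). Within 1 kb of the start lay 58.5% of the H3K18ac peaks, against 62.3% of all peaks, and 55.6% of the H3K27ac peaks, against 62.6%. The share covering the start was 34.5% for linc peaks and 14.7% for anr peaks in H3K18ac. In H3K27ac it was 30.4% for linc peaks and 20.7% for anr peaks.

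By RefSeq, 13 of 72 linc genes and 23 of 25 anr genes overlap a coding gene. Of the H3K18ac peaks, 27 of 84 linc and 27 of 34 anr peaks lie over one. The 27 linc peaks over a coding gene had a median H3K18ac log2 ratio of -0.36, with 1 higher and 8 lower. The other 57 linc peaks had a median of 0.05, with 7 higher and 8 lower. Leaving out the 4 peaks of linc-42 brings the first group to -0.14, with 1 higher and 5 lower of 23. For H3K27ac the medians were -0.14 for 28 linc peaks over a coding gene and -0.12 for 51 over none. The 27 anr peaks over a coding gene had a median H3K18ac log2 ratio of 0.00, with 4 higher and 2 lower, and for H3K27ac the 24 such peaks had 0.08, with 3 higher and 2 lower. No test of these differences was made.

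Among antisense genes, the peak of anr-40 lies over ins-36, which encodes an insulin-like peptide (chromosome I, 11214179 to 11214737). H3K18ac there had 86.6 CPM in cco-1 RNAi and 139 CPM in empty vector, a fold of 0.622 (0.568 to 0.682). The overlapping H3K27ac peak, assigned to ins-36, had a fold of 0.773 (0.701 to 0.852). The peak of linc-65 lies downstream of it over pgl-3, a P granule component of the germline (chromosome V). For H3K18ac this peak had 52.1 CPM in cco-1 RNAi and 84.9 CPM in empty vector, a fold of 0.613 (0.545 to 0.691). H3K27ac at linc-65 stayed within 1.5-fold, with a fold of 0.927 (0.843 to 1.02). At linc-18 (chromosome I) the start peak had an H3K18ac fold of 0.645 (0.585 to 0.711). The peak upstream of sdz-14, a coding gene that overlaps linc-18, had one of 0.524 (0.470 to 0.583). H3K27ac stayed within 1.5-fold at linc-18, with a fold of 0.755, and fell to 0.552 at sdz-14. At linc-23 (chromosome I) H3K27ac fell to a fold of 0.627 (0.558 to 0.705) downstream of the gene and within F40E3.5, while the peak upstream of that gene rose 1.72-fold (1.56 to 1.90). H3K18ac thus moved the same way at linc-18 and its coding neighbour. The falling peak at linc-23 lies outside that noncoding gene, so the contrast there is between a place within F40E3.5 and one upstream of it. With the median of all peaks set to 0, this fall does not pass 1.5-fold (log2 ratio of -0.48).

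Further antisense rises lay within coding genes, and those at anr-44 and anr-45 were named after their values were seen. At anr-54, within vhp-1, which encodes a MAP kinase phosphatase (chromosome II), H3K18ac rose 1.87-fold at a weak downstream peak (1.39 to 2.52) and H3K27ac rose 1.98-fold at another inside the gene (1.45 to 2.71). Neither of the other H3K18ac peaks of anr-54 passed the threshold, with folds of 0.867 and 1.19. At anr-44, within nhr-66, a nuclear hormone receptor gene (chromosome IV), the start peak rose 1.69-fold for H3K18ac (1.34 to 2.12) and had a fold of 0.945 for H3K27ac (0.789 to 1.13). At anr-45, within cdk-2, a cyclin-dependent kinase gene (chromosome I), a weak upstream H3K27ac peak had 15.4 CPM in cco-1 RNAi and 5.54 CPM in empty vector, 2.77-fold higher (2.07 to 3.75). The strong H3K27ac peak over the end of anr-45 had 94.1 CPM in cco-1 RNAi and 141 CPM in empty vector, a fold of 0.667 (0.617 to 0.721), just short of the threshold. Weak and strong peaks of 1 antisense gene therefore pointed opposite ways at anr-45.

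Other strongly marked antisense genes stayed within 1.5-fold at the scaling used, but some pass it with the median of all peaks set to 0: anr-32 in both marks (log2 ratios of 0.61 for H3K18ac and 0.68 for H3K27ac), and anr-11 (0.76) and anr-39 (0.65) in H3K27ac. At the scaling used, the peak of anr-32 lies in fos-1, an AP-1 transcription factor gene (chromosome V), with log2 ratios of 0.58 for H3K18ac, just under the threshold, and 0.48 for H3K27ac. H3K27ac at anr-11, in dcaf-1, had a fold of 1.48 (1.33 to 1.65), against 0.989 for H3K18ac. H3K27ac at anr-39, in F42G2.2, had a fold of 1.38 (1.23 to 1.54), against 1.07 for H3K18ac. At anr-12 the folds were 0.951 for H3K18ac and 1.06 for H3K27ac. The strongest peak of anr-42 was lower in both marks but within the threshold, with folds of 0.743 for H3K18ac and 0.736 for H3K27ac at overlapping peaks.

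Levels can be set beside each other per kilobase of peak. The antisense peaks had a median H3K18ac level of 99.3 CPM per kb in cco-1 RNAi and 90.4 CPM per kb in empty vector. The linc peaks had 49.4 CPM per kb in cco-1 RNAi and 59.9 CPM per kb in empty vector, near the 58.3 and 59.2 CPM per kb of all peaks in the same order. The higher level was not particular to antisense peaks, most of which lie over a coding gene. The linc peaks over a coding gene had 78.9 CPM per kb in cco-1 RNAi and 89.8 CPM per kb in empty vector. Those over none had 40.4 and 38.9 CPM per kb in the same order. For H3K27ac the antisense peaks had 96.4 CPM per kb in cco-1 RNAi and 92.5 CPM per kb in empty vector. In the same order linc peaks had 56.3 and 59.1 CPM per kb, and all peaks 47.1 and 57.5 CPM per kb. The highest level belonged to a peak upstream of anr-53 (chromosome III, 1299601 to 1299969), with 940 CPM per kb in cco-1 RNAi and 1110 CPM per kb in empty vector for H3K18ac. It ranked 12 of all 17207 peaks in empty vector, and its H3K18ac fold was 0.847 (0.807 to 0.890). The overlapping H3K27ac peak of anr-53 was also high, with 552 CPM per kb in cco-1 RNAi and 522 CPM per kb in empty vector. Below it came linc-2, within pcf-11, a gene for an mRNA cleavage factor (chromosome III). H3K27ac at linc-2 had 256 CPM per kb in cco-1 RNAi and 298 CPM per kb in empty vector. H3K27ac at linc-90 (chromosome III) had 198 CPM per kb in cco-1 RNAi and 233 CPM per kb in empty vector. linc-90 overlaps gei-4 by RefSeq, whereas gei-4 as positioned in the deposited data does not reach it. Counts are not corrected for input, so levels compare places with that limit.

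The RNA interference and small RNA pathway was described as a whole, because worms were fed double-stranded RNA. Of its 27 listed genes 15 had an H3K18ac peak; 0 rose and 5 fell, with a median log2 ratio of -0.34, against 8.04% higher and 13.1% lower among all genes. The 5 were nrde-4, alg-4, wago-1, alg-3 and nrde-3; alg-3, alg-4, wago-1 and nrde-3 encode Argonaute proteins. For H3K27ac 15 were measured, 0 rose and 3 fell (prg-1, alg-4, nrde-3), with a median of -0.16, against 8.72% higher and 21.9% lower among all genes. prg-1 encodes the Argonaute of piRNAs.

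Cell type markers, taken by their strongest peaks, are to be read against the same shares of all genes, 8.72% higher and 21.9% lower for H3K27ac and 8.04% higher and 13.1% lower for H3K18ac. Germline and oocyte markers fell at 7 of 10 measured genes for H3K27ac, with summed levels of 784 CPM in cco-1 RNAi and 1259 CPM in empty vector, and at 1 of 7 for H3K18ac, with 388 CPM in cco-1 RNAi and 490 CPM in empty vector. Sperm markers fell at 2 of 6 for H3K27ac and at 1 of 6 for H3K18ac. Hypodermis markers fell at 2 of 5 for H3K27ac and at 3 of 5 for H3K18ac. Body wall muscle markers fell at 1 of 6 for H3K27ac and 1 of 5 for H3K18ac, and pharynx markers at 1 of 3 and 1 of 2 in the same order. Intestine markers rose at 1 of 5 for H3K27ac and 0 of 3 for H3K18ac. Neuron markers rose at 1 of 6 and fell at 1 for H3K27ac, and rose at 3 of 8 for H3K18ac. Their part in the falls and rises at linc and anr genes was not tested.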

How the data were processed

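The deposited tables, 1 per mark, list each peak with a position, its assigned gene and a whole-number count for each condition, per the file headers. Whole numbers with unequal library totals were taken as counts; a normalized unit rounded before deposit would look alike. Per the submitters' processing notes, the tools were MACS2 2.1.2, SAMtools 1.4.1, Bowtie2 2.3.5 and FastQC, and the builds ce11 and WBcel235. How reads were filtered and counted, whether calls used pooled libraries and what the inputs were used for: not given in the sources used here.

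Nuclear peaks listed for several genes were counted once in totals. Counts were scaled to the library's total in nuclear peaks. At the median count of linc and anr peaks, the counting error of a ratio is 7.70% (H3K18ac) or 6.87% (H3K27ac). No test was made, as each group has 1 library. Genes were taken by the peak with the larger mean CPM. The linc and anr genes, the lists and the thresholds were chosen with earlier results of these data known. Named genes were, per mark, the 6 largest rises and 6 largest falls at or above the median strength, the 5 highest per kb, those changed in both marks and those with 3 or more peaks, and the coding genes beside them; others are marked as chosen afterwards. Of the 97 genes, all matched RefSeq (WBcel235) by symbol and 96 had the same coordinates. Marker lists covered pharynx, hypodermis, neuron, body wall muscle, intestine, sperm, and germline with oocyte. Python 3.11.15, numpy 2.4.6, pandas 2.3.3, SciPy 1.17.1 and matplotlib 3.10.9 were used, and edgeR 4.0.16 in R 4.3.3 for TMM factors only. The calculations were checked on simulated data.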

Additional observations from a re-analysis of the deposited data

How the results depend on the processing

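Under every alternative run the median log2 ratios of the linc and anr peaks lay between -0.05 and 0.10 for H3K18ac. For H3K27ac they lay between -0.07 and 0.12, above 0 under median scaling, TMM scaling and centring on strength, except that start peaks over no coding gene, an alternative chosen after seeing the data, gave -0.31. The counts moved as well. For H3K18ac, peaks that rose (13) came to 1 at a 2-fold threshold, 20 without scaling, 5 among peaks of at least median strength, 7 within 1 kb of the gene start, 5 with 1 peak per gene and 1 among start peaks over no coding gene. Those that fell (19) came to 5 at 2-fold, 6 at median strength, 10 within 1 kb and 2 among start peaks. For H3K27ac, peaks that rose (13) came to 7 at 2-fold, 20 under median scaling, 5 at median strength, 7 within 1 kb, 6 with 1 peak per gene and 3 among start peaks; those that fell (22) came to 14 at 2-fold, 8 at median strength and 6 among start peaks. Subsets hold fewer peaks by construction. Genes higher in both marks (0) came to 2 under median scaling, and genes lower in both (5) to 3 with a pseudocount of 5 CPM; these counts were added after seeing the data. Among 45 values of named genes, 22 passed 1.5-fold. Median scaling lost 2 (anr-47 and linc-23, H3K27ac) and gained 4 (anr-32 in both marks, anr-11 and anr-39 in H3K27ac). The pseudocount lost 4 (linc-98 and linc-168 in H3K18ac, linc-151 and linc-159 in H3K27ac), and the peak nearest to the start lost 2 (linc-128 in H3K18ac, linc-159 in H3K27ac). Median scaling and the pseudocount cannot reverse the sign of a value past 1.5-fold, so their outcome on this was fixed in advance. With the peak nearest to the start, 0 of the 22 changed sign. At most of them this peak is the strongest peak itself, so no change was possible there. It is another peak only at linc-68 in both marks, linc-128 in H3K18ac, and linc-151 and linc-159 in H3K27ac. No paired analysis was possible because each group has 1 library. The motif count in promoters was not run, as no sequence was used here. Depth limits weak peaks most, and without replicates the spread between worms is unknown.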
